A study of Homo sapiens with 24 samples.

Results

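These results concern tetracycline given to colorectal cancer cells that carry a mutant, inducible form of the kinase MLK4, the control arm of the study. The members were chosen by sample title and comprise 12 of the 24 arrays. They are HCT15 cells with inducible MLK4 Y330H (3 arrays tagged Tet, with tetracycline for 24 h, and 3 untagged) and HT115 cells with inducible MLK4 E314K (3 Tet and 3 untagged). Both are established human colorectal cancer lines whose own MLK4 carries loss-of-function mutations per the labels, so every group shares that background. The labels do not say what the untagged cultures received, which promoter drives the inducible gene and whether the cells were 1 clone or a pool. The other 12 arrays, used only for contrast, come from the same lines with inducible wild-type MLK4. A Tet array holds both the drug and whatever mutant protein was made, and these cannot be told apart. No label describes the replicates as separate cultures. A p-value here therefore reflects the spread among these arrays alone, and that spread may be technical.

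MLK4 has the current gene symbol MAP3K21 and belongs to the mixed-lineage kinases. Kinases of this family phosphorylate the kinases upstream of JNK, and JNK in turn phosphorylates JUN, a subunit of the transcription factor AP-1, which acts on its own promoter among others. Tetracycline is widely used as a gene switch, and drugs of its class also bind the ribosomes of bacteria and of mitochondria. Loss of mitochondrial translation is known to engage the integrated stress response, in which the factor ATF4 switches on amino acid synthesis, tRNA charging and stress genes. The comparison therefore has 2 sets of genes of special interest, the MLK4 to AP-1 route and the mitochondrial and ATF4 genes.

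Promoter stretches are shown for the JUN gene, at the end of the kinase route, and for ATF4 targets whose values are given further on. They come from RefSeq (GRCh38.p14), lie before the transcription start and read along the gene's strand. Capitals mark TGACNTCA, an AP-1 type site, in JUN, and TGATGNAA, the core of the composite element that ATF4 binds, on either strand in the others. The JUN stretch is chr1:58784081-58784140 (minus strand), that of ASNS chr7:97872443-97872502 (minus), that of CHAC1 chr15:40953236-40953295 (plus), that of ATF3 chr1:212565190-212565249 (plus) and that of AARS1 chr16:70289660-70289719 (minus).
JUN: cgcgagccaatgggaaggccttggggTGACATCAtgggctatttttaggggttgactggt
ASNS: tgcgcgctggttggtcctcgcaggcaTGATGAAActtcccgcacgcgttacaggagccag
CHAC1: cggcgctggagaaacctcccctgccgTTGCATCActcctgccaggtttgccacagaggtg
ATF3: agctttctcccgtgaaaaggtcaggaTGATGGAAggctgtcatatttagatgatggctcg
AARS1: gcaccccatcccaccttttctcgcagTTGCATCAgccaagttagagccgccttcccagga
The 2 motifs do not contain each other. TGATGNAA was found in 403 of 15384 promoters of 300 bases (2.62%) and in 11 of the 39 promoters available for ATF4-linked genes, and TGACNTCA in 1160 (7.54%). The 11 ATF4-linked genes with the element had a median log2 difference, Tet minus untagged, of 0.03, against -0.02 for all 403 promoters that hold it. The 11 and the 403 were not matched for level. The median of the whole ATF4-linked list, given further on, was no lower than that of the 11. Some of the 11 elements, such as that of SLC7A1, lay after the transcription start.

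All values are RMA signals on the log2 scale, where a difference of 1 is 2-fold. The medians of the 12 arrays lay between 6.38 and 6.48. The 3' minus 5' difference of ACTB control probe sets, a sign of RNA integrity, ranged from 0.30 to 0.52 and was no different by treatment beyond the spread (difference of the line means 0.01, exact permutation p = 0.755, two-sided, over 400 relabellings within lines). In the wild-type HCT15 arrays numbered 1, used for contrast, this ACTB difference was 1.175 untagged and 0.93 with Tet. The other wild-type arrays ranged from 0.35 to 0.65. In HCT15 Y330H the arrays numbered 1, untagged and Tet alike, stood apart from numbers 2 and 3. In these arrays 227 genes were over 2-fold above the mean of numbers 2 and 3, 12 of 47 ATF4-linked genes among them, and 64 were over 2-fold below it. Results are therefore also given without both of these arrays, an alternative chosen after seeing the data. In HT115 E314K the arrays numbered 1 were also high for some genes. KRTAP3-1 was at 8.45 untagged and 8.28 with Tet in them, against 7.05 to 7.29 in the other HT115 E314K arrays. No fit left out both of these HT115 arrays. No mean level in the text separates fewer cells of a kind from less RNA per cell.

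No gene was called for a change with tetracycline in mutant MLK4 cells by limma across both lines. Among 19775 genes, 0 (0%) passed an adjusted p of 0.05 in the pooled comparison of 6 Tet with 6 untagged arrays with line as a block. The smallest adjusted p was 1.00, and 691 genes (3.49%) had an unadjusted p under 0.05, of which 99 (0.501%) were higher and 592 (2.99%) lower with Tet. The largest differences were 0.64, in the chemokine gene CXCL11, and -0.60, in LOC100286922, a locus named here only for its extreme value. In 72.2% of genes the difference was under 0.1. The count at an unadjusted p under 0.05 was 1426 with a replicate block and 443 without the HCT15 Tet array numbered 3, and no gene was called by limma under either. Without both HCT15 arrays numbered 1 it was 769, again with 0 called.

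Each line alone gave the same count. Y330H in HCT15 called 0 genes (0%) by limma, with 687 at an unadjusted p under 0.05, and E314K in HT115 called 0 (0%), with 307. The difference between the lines called 0 (0%), with 345. Across genes, the difference in HCT15 and that in HT115 had Pearson's r of 0.079 and Spearman's rho of 0.112, where genes are not independent replicates, and 52.3% of genes had the same sign. In the wild-type arrays of the same lines, fitted alone, 134 genes (0.678%) were called in HCT15 and 17 (0.086%) in HT115.

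**Figure D1:**
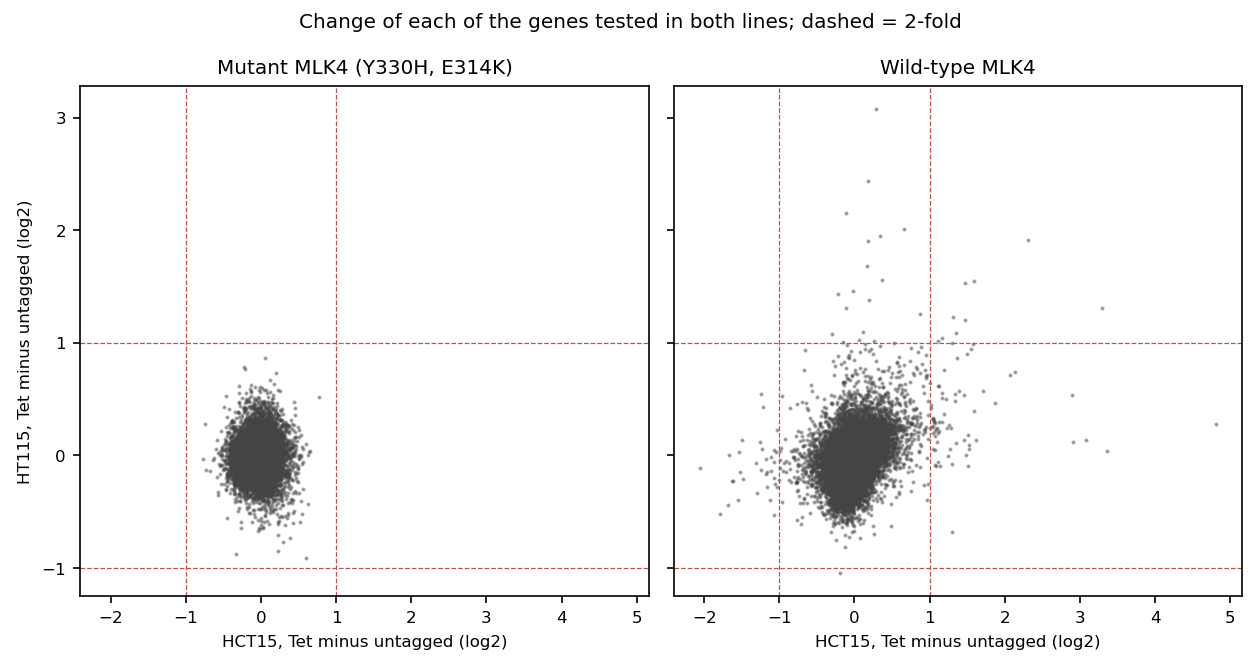
Each point is 1 of 19775 genes, with its log2 difference (Tet minus untagged) in HCT15 on the x axis and in HT115 on the y axis, for mutant MLK4 on the left and wild-type MLK4 on the right; dashed lines mark 2-fold. No gene lies outside 2-fold in either mutant line, whereas the wild-type panel holds genes up to 4.81 in HCT15 and 3.08 in HT115.

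The precision of the arrays turns these counts into bounds. The median 95% confidence interval of the pooled difference had a half-width of 0.22, and from the 5th to the 95th percentile of genes the half-width ran from 0.15 to 0.41. For 19743 genes (99.8%) the interval lay within 2-fold in both directions, and for 19090 (96.5%) within 1.5-fold. Within 1.2-fold it lay for 7627 genes, 38.6% of those tested. With intervals widened to hold for all genes at once by Bonferroni's rule, 13412 genes (67.8%) stayed within 2-fold. Within a single line, the interval was inside 2-fold for 98.5% of genes in HCT15 and 98.2% in HT115. The 32 genes not bounded within 2-fold included the neuropeptide NTS, with the widest interval (-1.45 to 1.62), the growth factor EREG, the Wnt inhibitor DKK1 and the ATF4 targets NUPR1, CHAC1 and ATF3. These names were picked from the 32 after their values were seen.

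MAP3K21, the induced gene, lies on chromosome 1 from 233327724 to 233385148 and was measured by a single probe set. In HCT15 Y330H its level was 10.43, 10.85 and 10.69 in the untagged arrays and 10.60, 10.69 and 10.90 with Tet. In HT115 E314K it was 10.68, 10.84 and 10.48 untagged and 10.72, 10.58 and 10.76 with Tet. The groups overlapped in both lines, and the pooled difference was 0.05 (95% interval -0.15 to 0.25). With wild-type MLK4 the same probe set differed by -0.15 in HCT15 and -0.19 in HT115, so it showed no rise there either. Where this probe set sits in the transcript is unknown here, and one outside the induced sequence would not register it. The mutant value therefore does not check that the mutant kinase was made.

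JUN, at the end of the kinase route, had Tet and untagged levels that overlapped in both lines. JUN (chromosome 1, 58780791 to 58784047) stood at 9.48, 9.80 and 9.29 in untagged and 9.63, 9.61 and 9.62 in Tet arrays of HCT15. In HT115 it stood at 10.92, 10.99 and 10.53 untagged and 10.89, 10.85 and 10.52 with Tet. The lines thus differed in their JUN level far more than the treatments did. The pooled difference of JUN was 0.02 (SE 0.11, interval -0.22 to 0.26, limma adjusted p = 1.00). With wild-type MLK4 JUN rose by 1.04 in HCT15 (limma adjusted p = 0.0141), where its mutant difference was 0.10 (interval -0.25 to 0.45). In HT115 the wild-type difference of JUN was 0.32 (interval -0.01 to 0.65, limma adjusted p = 0.653) and the mutant difference -0.06. The test of the wild-type change minus the mutant change over both lines gave 0.66 for JUN (SE 0.16, adjusted p = 0.208), which did not pass.

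The cell cycle inhibitors CDKN1A, which codes for p21, and CDKN2B, which codes for p15, were named in the series title. CDKN1A (chromosome 6, 36676463 to 36687332) was at 10.84, 10.12 and 10.12 untagged and 10.86, 9.79 and 10.14 with Tet in HCT15. In HT115 it was at 9.78, 9.32 and 9.54 untagged and 10.01, 9.47 and 9.53 with Tet. The highest HCT15 values are both from the arrays numbered 1. The pooled difference of CDKN1A was 0.01 (interval -0.39 to 0.41, and -0.24 to 0.26 with the HCT15 pairs as a block). CDKN2B, on chromosome 9 from 22002903 to 22009313, ranged only from 4.62 to 5.15 over the 12 arrays. Its pooled difference was -0.09 (interval -0.27 to 0.10), in the dimmest of 4 equal classes of genes by level. Of 7 measured inhibitors of cyclin-dependent kinases, 0 were called and the median difference was -0.03, against -0.0046 over all genes tested. CDKN2A had the smallest pooled p of the 7, with a difference of -0.18 (interval -0.46 to 0.09). It was -0.42 in HCT15 (interval -0.77 to -0.07) and 0.05 in HT115 (interval -0.30 to 0.40), and its groups overlapped in both lines.

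Of 16 measured mixed-lineage kinases, JNK kinases and JNK scaffolds, 0 were called, and the 95% intervals of all 16 lay within 1.5-fold. The median was 0.05. MAPK8, which codes for JNK1, had a difference of -0.05 (interval -0.21 to 0.11), and MAPK9, for JNK2, one of 0.04 (interval -0.12 to 0.21). The related kinases MAP3K9, MAP3K10 and MAP3K11 had differences of 0.05, -0.08 and 0.06. The JNK scaffold gene MAPK8IP3 was at -0.20 (unadjusted p = 0.0485), and at -0.05 when all its probe sets were averaged. In HCT15 it was the 1 gene of these 16 with no overlap between treatments (8.53, 8.37 and 8.50 untagged, 8.29, 8.28 and 8.03 with Tet), and 0 of the 16 were apart in HT115. Of all genes, 7.27% were apart in HCT15 and 6.16% in HT115, so counts this small in short lists do not mark out their members. Of 17 AP-1 family genes, 0 were called and the median was 0.03, where wild-type MLK4 gave medians of 0.43 in HCT15 and 0.13 in HT115. The arrays of 0 of the 17 were apart in HCT15 and those of 1 in HT115, where FOSL2 was at 9.87, 9.89 and 9.91 untagged and 9.99, 9.96 and 10.02 with Tet. FOS had a difference of -0.02 (interval -0.44 to 0.40) and FOSL1 one of 0.10 (interval -0.46 to 0.66). Of 31 AP-1 and immediate early targets, 0 were called and the median was 0.02, against 0.42 and 0.22 with wild type in HCT15 and HT115. The arrays of 3 of the 31 were apart in HCT15 and those of 1 in HT115, against 7.27% and 6.16% of all genes.

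**Figure D2:**
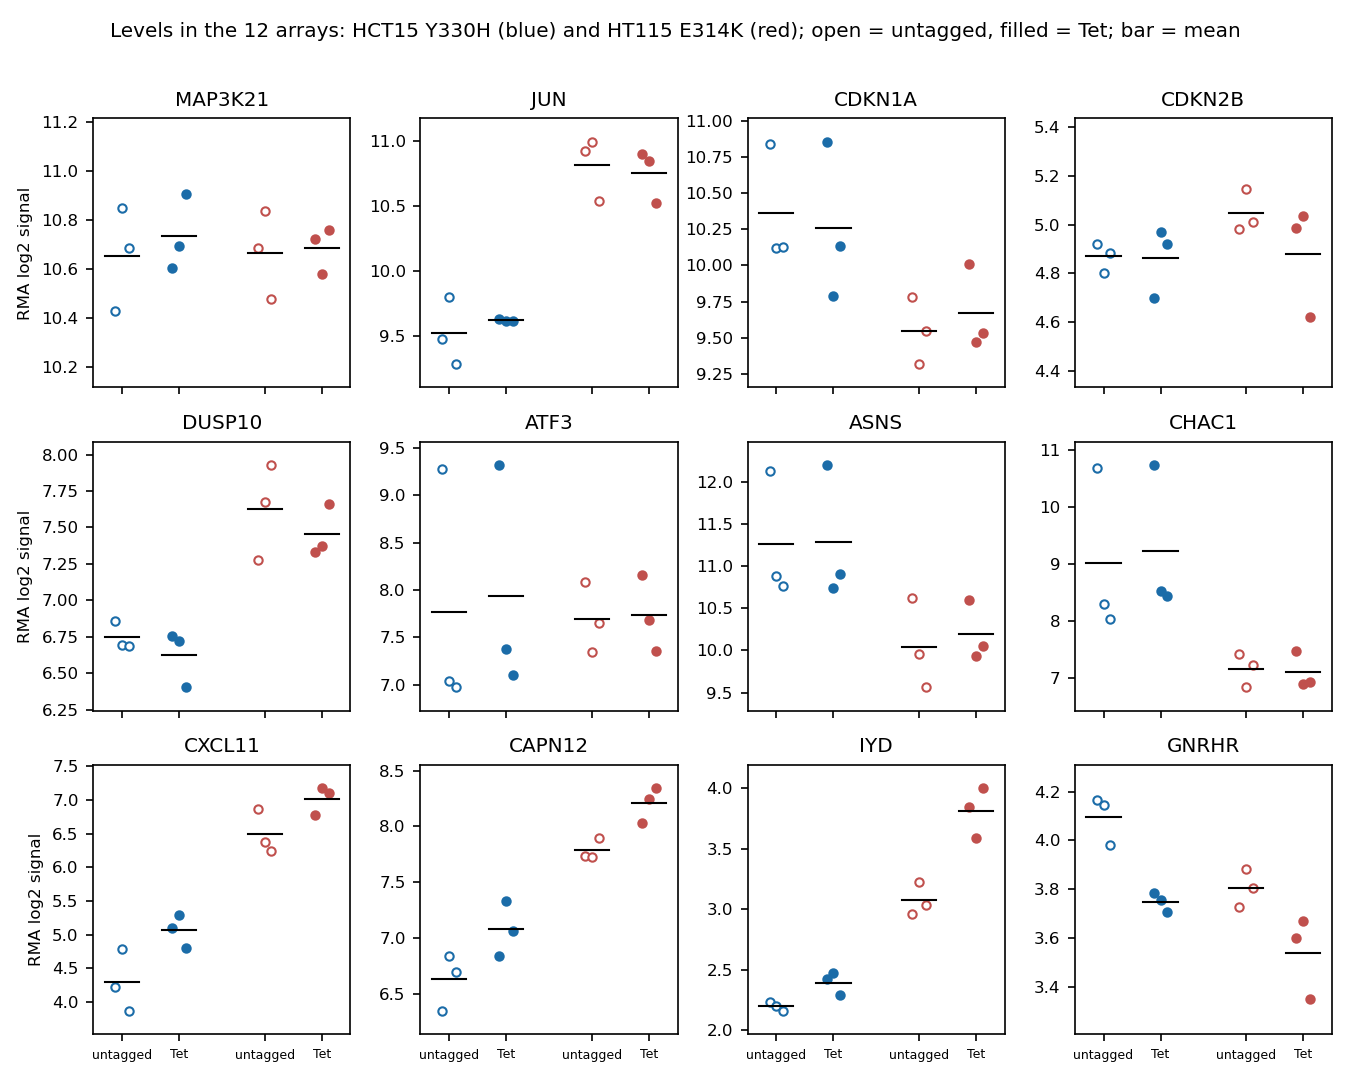
RMA log2 signal of 12 genes in each of the 12 mutant arrays, HCT15 Y330H in blue and HT115 E314K in red, open for untagged and filled for Tet, with a bar at each group mean and an axis of its own for each gene. Tet and untagged points overlap for MAP3K21, JUN, CDKN1A, CDKN2B, DUSP10, ATF3, ASNS and CHAC1; a single HCT15 array of each treatment, numbered 1, lies high for ATF3, ASNS and CHAC1.

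The genes that changed with wild-type MLK4 had median differences near 0 with the mutants. Of the 134 genes called with wild type in HCT15, whose median change there was 0.76, the median difference with mutant MLK4 was 0.02 over both lines and 0.03 with Y330H alone. Of the 134, 0 had an unadjusted p under 0.05 in the pooled mutant comparison (3.49% of all genes did). By level that share was 6.57% and 6.07% in the 2 dimmest of 4 equal classes, 1.34% in the third and 0 in the brightest. The 134 were not matched to genes of like level. Their intervals lay within 2-fold for 132 (98.5%, against 99.8% of all genes) and within 1.5-fold for 111 (82.8%, against 96.5%). These genes were therefore less closely bounded than genes at large, and the intervals of the others reached past 1.5-fold. Of the 17 called in HT115, whose median change was 1.31, the median mutant difference was -0.03, and 15 intervals (88.2%) lay within 2-fold. These genes were selected in other arrays, which share no control with the mutant ones.

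The test of the wild-type change minus the mutant change over all 24 arrays called 20 genes (0.101%), and in each of them the wild-type change was the larger. The gap is a mean of both lines, which did not contribute alike. CPA4, a secreted carboxypeptidase, had the largest gap, 2.61 (SE 0.40, limma adjusted p = 0.00827). Its gap was 5.04 in HCT15 (adjusted p = 0.000323) and 0.18 in HT115 (adjusted p = 1.00), as the wild-type change was 4.81 and 0.28. Its mutant levels were 5.18, 5.83 and 4.76 untagged and 4.41, 5.57 and 5.10 with Tet in HCT15, and 4.37, 3.89 and 3.99 against 4.38, 4.43 and 3.75 in HT115. The mutant groups overlapped, with a pooled difference of -0.06 (interval -0.53 to 0.41). DUSP10, a phosphatase that inactivates JNK and p38, had a gap of 1.42 (SE 0.20, adjusted p = 0.00504) and a mutant difference of -0.15 (interval -0.39 to 0.09). CREB5, a partner of JUN, had a gap of 1.68 (SE 0.24, adjusted p = 0.00504) and a mutant difference of -0.18 (interval -0.54 to 0.18). The other named genes were KRTAP3-1, a hair keratin-associated protein, with a gap of 2.31, the scaffold protein AKAP12 with 2.19, the matrix protein MXRA5 with 1.99 (0.37 in HCT15 and 3.60 in HT115), the calcium-binding protein S100A2 with 1.53 and the sialyltransferase ST3GAL6 with 1.35. In VANGL2, a planar cell polarity protein named here after its values were seen, the mutants supplied part of the gap of 0.84, with a mutant difference of -0.37 (interval -0.59 to -0.16, limma adjusted p = 1.00) and wild-type differences of 0.46 and 0.47. MXRA5 had a mutant difference of -0.52 in HT115 (interval -1.45 to 0.41), where its wild-type difference was 3.08. KRTAP3-1 has near relatives that can share probe signal. The count of 20 was 170 with a replicate block over all arrays, although the numbers were not treated as pairs in HT115, and 12 without both HCT15 Y330H arrays numbered 1. It was 33 without the wild-type HCT15 Tet array numbered 3, 12 without the one numbered 2 and 13 without the untagged wild-type HT115 array numbered 2. MXRA5 (adjusted p up to 0.0947) and AKAP12 (up to 0.1002) missed the threshold in several fits that left out 1 array, and with trend and robust eBayes on all arrays (0.0557 and 0.0667). KRTAP3-1 missed it without the wild-type HCT15 Tet array numbered 2 (0.0516). KRTAP3-1 and ST3GAL6 (both at an adjusted p of 0.0512) and MXRA5 (0.0942) missed it without both HCT15 arrays numbered 1, and the gap of ST3GAL6 was 0.47 (adjusted p = 0.377) as the mean of its probe sets.

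**Figure D3:**
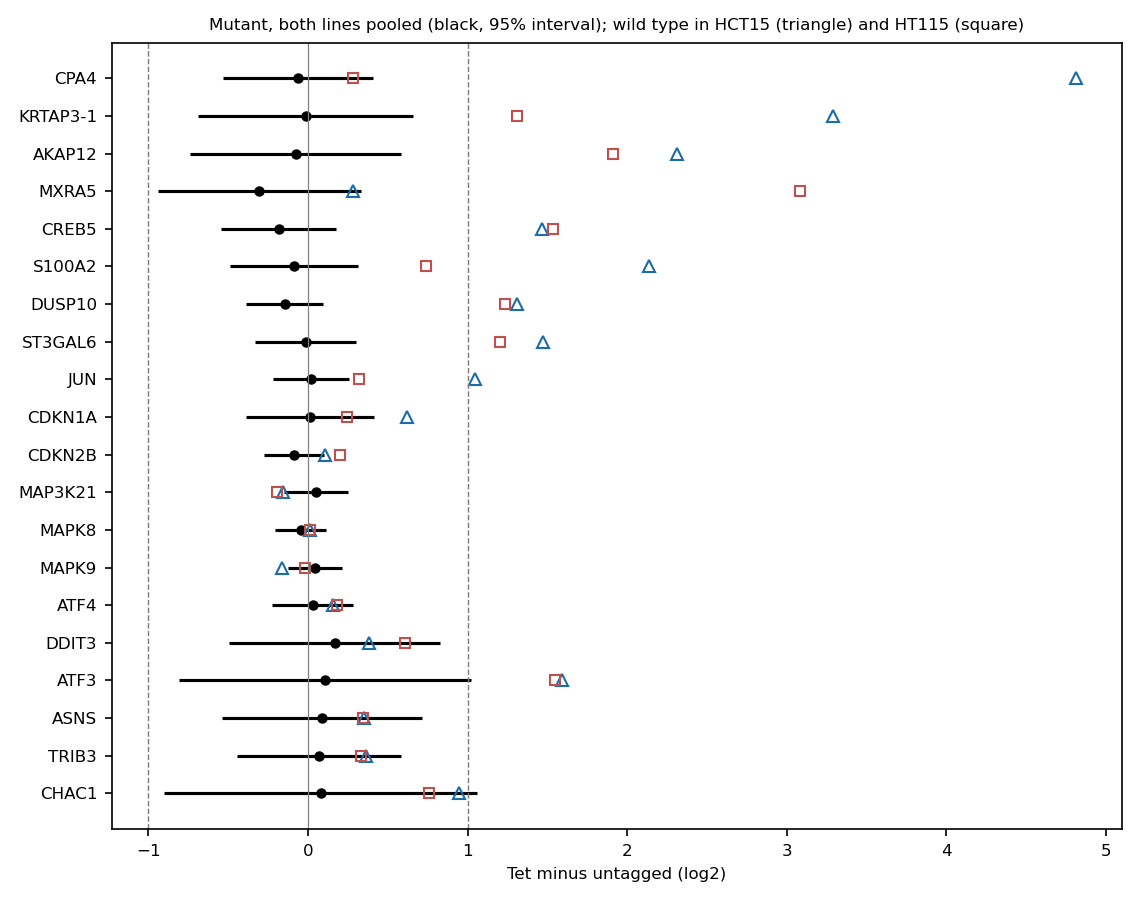
Log2 difference (Tet minus untagged) of 20 genes: black points and bars give the mutant arms pooled over both lines with the 95% interval, triangles the wild-type arm of HCT15 and squares that of HT115; dashed lines mark 2-fold. All 20 black points lie between -0.31 and 0.17, and only the intervals of ATF3 and CHAC1 cross the 2-fold line, at 1.02 and 1.06.

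In HCT15 the genes of the ATF4 response had median levels further apart between replicate numbers than between treatments. ATF4 itself, mostly controlled at translation, was at 13.13, 12.78 and 12.83 in untagged and 13.17, 12.78 and 12.87 in Tet arrays of HCT15, and at 12.55, 12.03 and 12.05 against 12.51, 12.11 and 12.11 in HT115. Its pooled difference was 0.03 (interval -0.23 to 0.28). ASNS, which makes asparagine, was at 12.13, 10.88 and 10.76 untagged and 12.20, 10.74 and 10.90 with Tet in HCT15. CHAC1, which degrades glutathione, was at 10.68, 8.30 and 8.04 untagged and 10.73, 8.52 and 8.43 with Tet there. In both genes the arrays numbered 1 were high with and without Tet. In HT115, CHAC1 was at 7.42, 6.83 and 7.23 untagged and 7.47, 6.89 and 6.93 with Tet. ASNS was at 10.62, 9.95 and 9.56 untagged and 10.60, 9.93 and 10.05 with Tet there. The HT115 arrays numbered 1 were thus the highest of each treatment for ATF4, ASNS and CHAC1 as well.

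The same split by number ran through the list in HCT15. Of 47 measured ATF4-linked genes, 0 were called, 39 had a difference above 0 (47.6% of all genes did) and the median was 0.04, with 0.06 in HCT15 and 0.04 in HT115. The share of genes above 0 depended on level. From the dimmest to the brightest of 4 equal classes it was 32.4%, 34.2%, 68.8% and 55.0%. The list was not set against genes of like level. Members of a pathway vary together, so the count of 39 is a description. With wild type the medians were 0.23 in HCT15 and 0.19 in HT115. The list's median level in HCT15, set against the untagged mean, was 0.40 and 0.36 in the untagged and Tet arrays numbered 1. It was -0.22 and -0.25 in those numbered 2 and -0.17 and -0.14 in those numbered 3. The intervals of 44 of the 47 genes lay within 2-fold and those of 32 within 1.5-fold, and with the HCT15 pairs as a block all 47 lay within 1.5-fold. Under that block the interval of CHAC1 narrowed from between -0.90 and 1.06 to between -0.20 and 0.36. That of ATF3, a stress-induced member of the AP-1 family, narrowed to between -0.21 and 0.43, that of the stress protein NUPR1 to between -0.16 and 0.16, and that of ASNS to between -0.28 and 0.45. AARS1, an aminoacyl-tRNA synthetase, had a difference of 0.09 (interval -0.10 to 0.28) and the peptide hormone ADM2 one of -0.11 (interval -0.34 to 0.12). Within arrays of equal number, Tet was the higher in 6 of 6 for 3 of the 47 genes (6.38%, against 1.40% of all genes) and the lower in 6 of 6 for 0 (2.41% of all genes). DDIT3, which codes for the stress factor CHOP, differed by 0.02, 0.11 and 0.29 in HCT15 and by 0.26, 0.23 and 0.09 in HT115. DDIT4, an inhibitor of mTOR signalling, differed by 0.09, 0.32 and 0.16 in HCT15 and by 0.15, 0.17 and 0.08 in HT115. The leucyl-tRNA synthetase LARS1 was the third. With a replicate block in both lines the intervals of DDIT3 (0.04 to 0.30) and DDIT4 (0.04 to 0.28) lay above 0, each with a limma adjusted p of 0.641. These were 2 of the 47, and of all genes 443 (2.24%) had intervals above 0. For 1 of the 47, FGF21, the interval lay below 0 (-0.33 to -0.015, limma adjusted p = 0.666), as it did for 983 of all genes. With the block in HCT15 alone, where the numbers were taken as pairs, the intervals of DDIT3 and DDIT4 ran from -0.0049 to 0.34 and from -0.19 to 0.51. That of FGF21 ran from -0.47 to 0.13. In HT115, which that fit left unblocked, DDIT4 was at 11.34, 10.53 and 10.68 untagged and 11.49, 10.69 and 10.76 with Tet. Without both HCT15 arrays numbered 1 the list's median was 0.05, with 36 of 47 above 0.

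Genes of the mitochondrial ribosome, the site at which tetracyclines can act in human cells, were closely bounded. Of 75 measured proteins of that ribosome, 0 were called, the median difference was -0.0078, and 75 intervals lay within 1.5-fold and 70 within 1.2-fold. The members with the smallest p were MRPL51 (-0.08, interval -0.22 to 0.06) and MRPS12 (0.06, interval -0.09 to 0.22). MRPL51 was at 12.55, 12.64 and 12.58 untagged and 12.54, 12.37 and 12.57 with Tet in HCT15, and at 12.94, 12.90 and 12.78 against 12.84, 12.84 and 12.77 in HT115. Its groups overlapped in both lines. Of 30 factors of mitochondrial transcription and translation the median was 0.03 and of 25 mitochondrial chaperones and proteases -0.0074, with 0 called in either and all intervals within 1.5-fold. MTERF3, a regulator of mitochondrial transcription, had a difference of 0.11 (interval -0.05 to 0.27).

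Nuclear genes of the respiratory chain gave similar values. Medians were 0.02 for 32 subunits of complex I, 0.00046 for 10 of complexes II and III, -0.02 for 15 of cytochrome c oxidase and -0.0068 for 18 of the ATP synthase, with 0 called in each. No gene encoded by mitochondrial DNA was measured under its own symbol, so the transcripts made inside mitochondria are not covered. COX6A2, the heart and muscle isoform of a cytochrome c oxidase subunit, was at 4.32, 4.33 and 4.47 untagged and 4.18, 3.92 and 4.16 with Tet in HCT15. In HT115 it was at 4.38, 4.32 and 4.37 untagged and 4.28, 4.0 and 3.93 with Tet. The groups did not overlap in either line, in the dimmest class of genes, and the pooled difference was -0.29 (interval -0.46 to -0.12, limma adjusted p = 1.00). COX4I2, another tissue-restricted isoform, was at -0.18 (interval -0.35 to -0.01). The 23 genes of glucose uptake and glycolysis had a median of 0.01 and 0 called.

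Lists of other known tetracycline-linked or stress-linked genes held no called member either. Over 26 genes of matrix metalloproteinases, which tetracyclines inhibit as proteins, and of the TIMP inhibitors of these enzymes, the median was -0.03. MMP2 was at -0.22 and MMP16 at -0.22, and they were at -0.09 and -0.10 when all probe sets of a gene were averaged. For 18 metallothioneins, zinc exporters and iron genes the median was 0.03. It was 0.0083 for 26 NF-kB and inflammatory targets, 0.03 for 21 p53 targets other than CDKN1A, 0.0059 for 25 cytosolic chaperones, 0.0018 for 27 endoplasmic reticulum stress genes and 0.02 for 21 NRF2 targets. The medians of 30 G1/S and 30 G2/M genes were 0.0065 and -0.0098, and that of 18 cholesterol genes was 0.0032, where wild type gave -0.35 in HCT15 and -0.11 in HT115. The interferon-stimulated genes had a median of 0.06 over 29 members, from -0.05 in HCT15 and 0.07 in HT115. OAS2 of this list, a sensor of double-stranded RNA, was at 4.56, 4.62 and 4.77 untagged and 5.20, 4.90 and 5.43 with Tet in HT115. Those groups did not overlap, while in HCT15 it was at 4.31, 4.61 and 4.46 against 4.30, 4.26 and 4.41. The HT115 difference of OAS2 was 0.53 (limma adjusted p = 1.00).

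**Figure D4:**
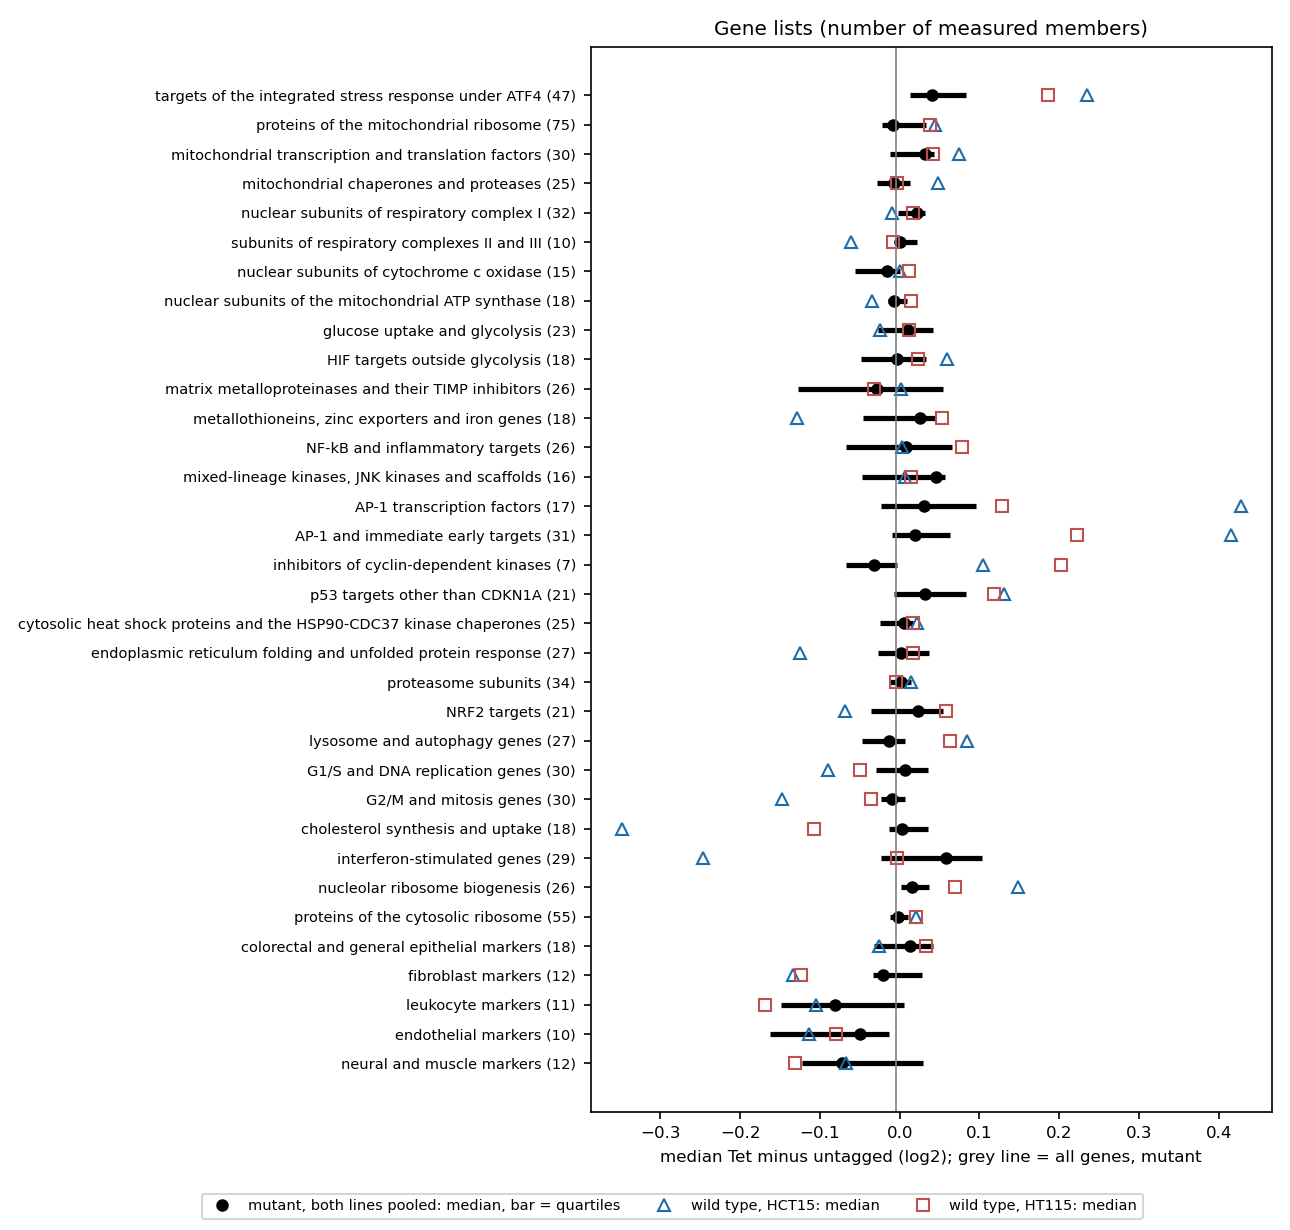
Median log2 difference (Tet minus untagged) of 34 gene lists, with the number of measured members in brackets; black points and bars are the median and quartiles over members with mutant MLK4 pooled over both lines, triangles and squares the medians with wild-type MLK4 in HCT15 and HT115, and the grey line the median of all genes with mutant MLK4. Black points lie between -0.08 and 0.06, and the AP-1 lists with wild type in HCT15 reach 0.43 and 0.42.

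The genes with the smallest p in the pooled comparison are described without a call. CAPN12, a calpain protease (chromosome 19, 38730192 to 38744693), was at 6.35, 6.84 and 6.70 untagged and 6.84, 7.33 and 7.07 with Tet in HCT15. In HT115 it was at 7.74, 7.73 and 7.89 untagged and 8.03, 8.25 and 8.34 with Tet. It was higher with Tet in each of the 3 HCT15 pairs, by 0.48, 0.49 and 0.37. The pooled difference of 0.43 (SE 0.10) had a limma adjusted p of 1.00, and of 0.408 with the replicate block. With wild-type MLK4, under the same tetracycline tag, CAPN12 was at 0.12 in HCT15 and 0.01 in HT115.

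CXCL11, a chemokine induced by interferon (chromosome 4, 76033682 to 76036070), was at 4.23, 4.79 and 3.88 untagged and 5.10, 5.30 and 4.80 with Tet in HCT15. In HT115 it was at 6.86, 6.38 and 6.25 untagged and 6.77, 7.17 and 7.10 with Tet, where the groups overlapped. The pooled difference was 0.64 (interval 0.30 to 0.99), or 0.40 as the mean of its probe sets, and with wild-type MLK4 it was -0.19 in HCT15 and 0.19 in HT115. IYD, an enzyme that recovers iodide from iodinated tyrosine, was at 2.23, 2.20 and 2.16 untagged and 2.42, 2.47 and 2.29 with Tet in HCT15, and at 2.96, 3.23 and 3.04 against 3.84, 3.58 and 4.0 in HT115. Neither line's groups overlapped for IYD, at levels among the dimmest. The difference of IYD was 0.19 in HCT15 and 0.73 in HT115 (unadjusted p = 5.2e-05, adjusted p = 1.00), and 0.49 with wild type in HT115. The other 7 genes on the higher side, PXK, MIPOL1, CCDC196, SI, ZNF333, SPEF2 and SPINDOC, had differences from 0.23 to 0.34. SI, the sucrase-isomaltase of the intestinal brush border, was at 2.36 to 2.73 in HCT15 and 3.08 to 3.73 in HT115.

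On the lower side the 10 genes lay between -0.46 and -0.27. The antisense RNA FAM169A-AS1 was at 4.34, 4.34 and 4.39 untagged and 3.82, 3.85 and 3.95 with Tet in HCT15, and at 3.67, 4.0 and 4.08 against 3.54, 3.83 and 3.61 in HT115. The groups were apart in HCT15 and overlapped in HT115. GNRHR, the receptor of gonadotropin-releasing hormone, was at 4.17, 4.15 and 3.98 untagged and 3.79, 3.76 and 3.71 with Tet in HCT15. In HT115 it was at 3.73, 3.88 and 3.81 untagged and 3.60, 3.67 and 3.35 with Tet. The groups of GNRHR did not overlap in either line, and its pooled difference was -0.31, or -0.13 as the mean of its probe sets. ZP1, an egg coat protein, had a difference of -0.46, and the hormone GHRH one of -0.27. LINC01883, LINC00092, HS3ST6, the keratin KRT79, SVEP1 and OVAAL lay between -0.34 and -0.29. These 20 genes were picked for their small p in these same arrays, and none was called under 21 alternative settings.

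In both lines together 77 genes (0.389%) had Tet and untagged arrays that did not overlap and a difference in the same direction, 10 higher (0.0506%) and 67 lower (0.339%). In 28 genes (0.142%) the arrays did not overlap but the directions were opposite. Within HCT15 alone the arrays of 1438 genes (7.27%) did not overlap, and within HT115 those of 1218 (6.16%).

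The lower side was mostly made up of dim genes. With genes put in 4 equal classes by level over the 12 arrays, the dimmest class held 26 higher and 299 lower at an unadjusted p under 0.05 and the next class 36 and 264, whereas the third held 37 and 29 and the brightest 0 of 4944 genes. A share of 5% would be 247.2 genes in that class, so far fewer genes passed there than the nominal rate. Without variance moderation, a setting added after seeing the data, the brightest class held 12 genes, and with the replicate block 23. The differences in that class had an SD of 0.04 against a median standard error of 0.09, and 1 component shared among its genes held 54.8% of the variance left after line and Tet, against 22.1% (SD 0.12, standard error 0.10) in the dimmest class. The intervals of bright genes were thus wide for the spread of their differences, and a count of 0 in them does not show that none differed. The median difference was -0.05 in the dimmest class and 0.0044 in the brightest. In the dimmest class it was -0.06 in HCT15 Y330H and -0.03 in HT115 E314K, and it was -0.07 and -0.08 with wild type in the same lines. The array medians of that class differed by -0.06 between Tet and untagged (exact permutation p = 0.03, two-sided, 400 relabellings within lines, smallest possible 0.005), a test chosen after seeing the data. The share lower among genes with an unadjusted p under 0.05 was 85.7% as deposited, 73.9% (128 higher and 362 lower) with array medians set equal, 68.9% (443 and 983) with the replicate block and 40.7% (48 and 33) among the brighter genes alone. No detection call was used here, so genes near background were not set apart. What moved the dim genes was not tested.

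**Figure D5:**
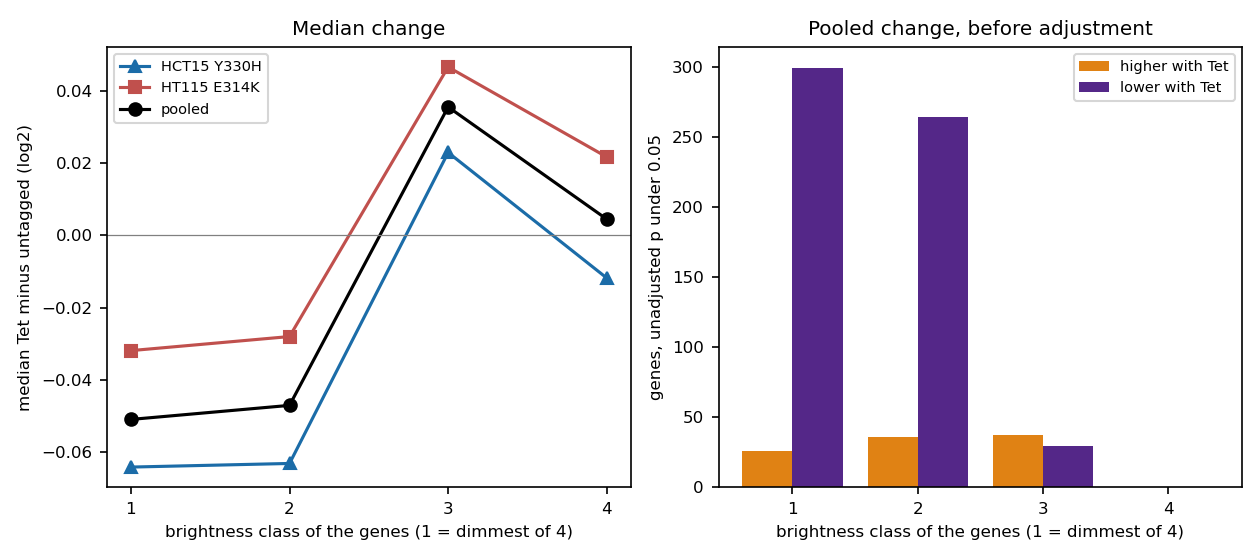
Genes in 4 equal classes by mean level over the 12 mutant arrays (1 is dimmest): on the left the median log2 difference, Tet minus untagged, in HCT15 Y330H, HT115 E314K and pooled; on the right the number of genes with an unadjusted p under 0.05 in the pooled comparison. The dimmest class has a pooled median of -0.05 and 299 genes lower, and the brightest class has no gene on either side.

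Between the lines, no difference in response passed the test. HACD4, which takes part in making very long fatty acids, was at 3.26, 3.38 and 3.35 untagged and 2.93, 2.80 and 2.68 with Tet in HCT15. In HT115 it was at 4.71, 4.23 and 4.58 untagged and 4.78, 4.66 and 4.72 with Tet. Its groups were apart in HCT15 and overlapped in HT115, and the difference between the lines was -0.74 (SE 0.18, limma adjusted p = 1.00). EVI2A had a difference between the lines of 0.93, from 0.22 in HCT15 and -0.71 in HT115.

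Markers of the labelled cell type were checked in every array. The adhesion molecule EPCAM was at 12.5 to 12.7 in HCT15 and 12.6 to 12.8 in HT115, and the keratin KRT18 at 13.3 to 13.4 and 13.4 to 13.6. The colonic markers KRT20 and CEACAM5 differed between the lines. KRT20 was at 3.95 to 4.30 in HCT15 and 9.14 to 10.0 in HT115, and CEACAM5 at 3.82 to 4.50 and 9.96 to 10.1. The 18 epithelial and colorectal markers had a median difference of 0.01, Tet minus untagged, and 0 were called. Fibroblast, leukocyte, endothelial and neural or muscle markers had median differences of -0.02, -0.08, -0.05 and -0.07, with 0 called in each list. Signals of different probe sets cannot be set against each other, so the level of these lists was not read as presence or absence of a cell type.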

How the data were processed

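Arrays were of the Affymetrix U133 Plus 2.0 type, per the labels. The authors deposited log2 values for probe sets after RMA normalization, and the submitters' processing notes name Affymetrix Power Tools. Versions are not given in the sources used here. Of 54675 probe sets, 41097 had 1 gene symbol, 1801 several and 11777 none in the platform annotation. The brightest probe set stood for each of 19775 genes. Changes were fitted with limma 3.58.1 in R 4.3.3 (lmFit and eBayes), with Benjamini-Hochberg adjustment over all genes and a threshold of 0.05. The pooled fit had line as a block and 9 residual degrees of freedom. Mutant lines were fitted together as 4 groups, and wild type minus mutant over 24 arrays. The authors' scale differs between some wild-type arrays, so changes only were compared.

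Members and gene lists were chosen with earlier results of these data known. Named were MAP3K21, JUN, CDKN1A, CDKN2B, MAPK8 and MAPK9, the 10 genes per direction with the smallest pooled p, 3 per direction per line and for the difference, up to 8 by size in wild type minus mutant, and from each list 2 by p. Y-linked genes were not named. Deviations from the group means correlated between arrays of equal number at r of 0.767, 0.618 and 0.310 in HCT15, which were taken as pairs through the numbers in the labels and this check, and at 0.594, 0.051 and 0.317 in HT115, which were not. Scripts were tested on simulated data. Precision is limited by the number of arrays.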

Additional observations from a re-analysis of the deposited data

Results flagged for a closer look

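The wild-type change minus the mutant change over both lines passed the test of the difference in CPA4 (2.61), KRTAP3-1 (2.31), AKAP12 (2.19), MXRA5 (1.99), CREB5 (1.68), S100A2 (1.53), DUSP10 (1.42) and ST3GAL6 (1.35), each with the larger change under wild type. The gap is a mean over lines, and by line it was 5.04 in HCT15 and 0.18 in HT115 for CPA4, 0.37 and 3.60 for MXRA5, and 3.34 and 1.29 for KRTAP3-1. Between the mutant lines, 4 of the 186 named genes had differences in opposite directions with no overlap between Tet and untagged arrays in either line, as had 28 of all 19775 genes (0.142%). Some named genes were picked for a small p of the line difference, which favours this pattern. For these 4 the difference, HCT15 minus HT115, was -0.38 in BRINP3, 0.63 in FRG1BP, 0.73 in RERG and -0.58 in COL13A1, and the limma test of that difference did not pass in any of them (adjusted p = 1.00). FRG1BP is a pseudogene whose relatives can share probe signal, and BRINP3 and RERG are among the dimmest genes.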

How the results depend on the processing

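A replicate block in both lines, although the HT115 numbers were not taken as pairs, called 0 genes in the pooled comparison. At an unadjusted p under 0.05 it gave 1426 genes, and 19775 of 19775 intervals lay within 2-fold. The block in HCT15 alone called 0, with 1038 genes at that p and 19764 intervals within 2-fold. The calls in the pooled comparison, in each line and in the line difference were 0 under every alternative run, among them all 24 arrays in 1 fit, trend and robust eBayes, arrayWeights, the mean of probe sets, equal array medians and each array left out. The smallest limma adjusted p was less stable. With all 24 arrays in 1 fit it was 0.0894 in HT115 E314K and 0.395 in the pooled comparison. The count of genes bounded within 2-fold was 9870 among the 9887 brighter genes and 41034 over 41091 named probe sets, where fewer or more features were tested, and 19709 to 19722 without single arrays. Wild type minus mutant called 170 genes with the replicate block, 44 with arrayWeights and 12 without both HCT15 Y330H arrays numbered 1, an alternative chosen after seeing the data, and 14 to 21 without single mutant arrays; leaving out single wild-type arrays, also chosen after seeing the data, gave 12 to 33. The cause was not tested. Of 713 list medians under alternatives, 2 moved, that of endothelial markers to 0.07 among the brighter genes and that of neural and muscle markers to -0.02 without the HCT15 Tet array numbered 3. For the median gene the unadjusted 95% interval had a half-width of 0.22 in the pooled comparison and 0.32 within a line of 3 against 3 arrays; adjusted over all genes, even the largest pooled difference, 0.64, did not pass.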
